A study of Homo sapiens with 3 samples.

Results

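The NADPH oxidase genes described here were DUOX1, DUOX2, DUOXA1, DUOXA2, NOX1, NOX4, NOX5, CYBA and CYBB, chosen by their gene symbols. They were 9 of the 16149 genes with a value above 0 in at least 1 of 3 mRNA sequencing libraries. All 9 were listed in at least 1 library and 8 in every library. Where a library did not list a gene, its value was taken as 0. The group was proposed because members of it had shown large differences between these same libraries, so that its values are a description and were not tested.

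The libraries came from 3 cultured lines of human hepatocellular carcinoma (HCC), with 1 library each. The labels name all of them HCCLM3, and the methods of the study name the parental line HCCLM3-R, a derivative that stably expresses red fluorescent protein. The parent is labelled as low in metastasis, subclone 1 as higher in metastasis to lung, and subclone 2 as spreading both to lung and to celiac lymph node. The methods instead call HCCLM3-R highly metastatic. Subclonal lines of the study were grown from single cells of lung or lymph node metastases in nude mice, so that each is 1 clone that had passed through a mouse, while the parent is a mixed population. Cloning, passage and metastatic behaviour therefore cannot be told apart in these libraries. No agent was added to any line, and RNA was taken from cells growing in DMEM medium.

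NADPH oxidases move electrons from NADPH across a membrane to oxygen and so make superoxide or hydrogen peroxide. DUOX1 and DUOX2 release hydrogen peroxide at the cell surface, where the thyroid uses it to make hormone and the lining of gut and airway uses it in defence, and each needs its maturation factor, DUOXA1 or DUOXA2, to leave the endoplasmic reticulum. NOX1, NOX4 and CYBB (NOX2) are held in the membrane by CYBA (p22phox), whereas NOX5 and the DUOX enzymes work without it.

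The 4 DUOX genes lie together on chromosome 15 as head-to-head pairs, each enzyme beside its maturation factor. In the GENCODE annotation of GRCh38, DUOX2 (Entrez gene 50506) has 34 exons on the minus strand between 45092650 and 45114344. DUOXA2 (405753) starts beside it and runs from 45114321 to 45118421 on the plus strand, with 6 exons. DUOXA1 (90527) has 11 exons on the minus strand between 45117367 and 45129938, and DUOX1 (53905) has 35 exons on the plus strand between 45129933 and 45165576. These places are not those of hg19, the build that the submitters name for their files. The stretches between the RefSeq starts of each pair are printed because a single short interval separates the starts of a pair that were both high in the subclones, and another those of a pair that stayed low. Both are given on the plus strand of GRCh38.p14, from chr15:45114173-45114325 and chr15:45129880-45129993. The capitals mark a TATAAA in the first and the GGGCGG motif, read as CCGCCC on the printed strand, in the second.
DUOX2-DUOXA2: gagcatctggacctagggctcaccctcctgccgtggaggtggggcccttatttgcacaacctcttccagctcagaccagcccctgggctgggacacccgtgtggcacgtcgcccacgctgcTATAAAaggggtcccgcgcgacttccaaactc
DUOXA1-DUOX1: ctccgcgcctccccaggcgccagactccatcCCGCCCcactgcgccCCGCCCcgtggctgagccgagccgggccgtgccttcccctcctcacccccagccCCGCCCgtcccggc

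The interval between DUOX2 and DUOXA2 has 153 bases and a GC content of 63.4%, near the median of 59.5% over 27303 RefSeq windows of that length before gene starts. It holds 8 CpG, against a median of 7. Its single TATAAA occupies bases 122 to 127 on the strand of DUOXA2, where the first base lies 32 bases before the DUOXA2 start, and 7.16% of the windows hold this motif on either strand. The interval between DUOXA1 and DUOX1 has 114 bases, a GC content of 80.7% (median 59.6%) and 13 CpG (median 5). It holds GGGCGG at 3 places on the minus strand, a motif present in 33.3% of windows of its length, and no TATAAA, which 5.78% of such windows hold. None of these matches overlap. The letters CCAAT, TTCNNNGAA, its form with 1 more spacer base, TGANTCA and the NF-kB motif, searched on both strands, were not found in either interval, and 24.7%, 3.86%, 2.99%, 4.20% and 6.10% of windows of 153 bases hold them. GENCODE places the start of DUOX2 inside DUOXA2, so the interval depends on the annotation.

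Levels are given as RPKM, in which the reads of a gene are scaled by its length and by the total reads of its library. The whole reads behind each value were recovered from the RPKM, and the libraries of parent, subclone 1 and subclone 2 came to 4488825, 4609696 and 4725150 reads. The 95% intervals in parentheses are exact Poisson intervals for levels and exact Clopper-Pearson intervals for folds between libraries, and both cover counting error only. With 1 library for each line no test between lines could be made, and reads of 1 molecule copied by PCR are not told apart. Percentiles and ranks are taken among the 11370 genes whose mean over the 3 libraries was at least 1 RPKM, on the scale of log2 (RPKM + 0.1).

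DUOX2 was low in the parent and abundant in both subclones, and higher in subclone 2 than in subclone 1. The parent gave 58 reads of this peroxide-making enzyme, or 2.01 RPKM (1.53 to 2.60). Subclone 1 gave 837 reads, or 28.2 RPKM (26.4 to 30.2), and subclone 2 gave 1654 reads, or 54.5 RPKM (51.9 to 57.1). The intervals of the 3 libraries did not overlap. The fold of DUOX2 over the parent was 14.1 in subclone 1 (10.8 to 18.7) and 27.1 in subclone 2 (20.8 to 35.8). These are log2 ratios of 3.75 and 4.69, which placed the gene 28th and 14th from the top. Subclone 2 exceeded subclone 1 in DUOX2 by 1.93-fold (1.77 to 2.10). Among the 11370 genes, the level of DUOX2 stood at percentiles 11.0, 76.4 and 88.0 in parent, subclone 1 and subclone 2.

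DUOXA2, which brings DUOX2 to the cell surface, had the same order of libraries. Its 9 reads in the parent made 1.38 RPKM (0.632 to 2.62), the 229 reads of subclone 1 made 34.2 RPKM (29.9 to 39.0) and the 459 reads of subclone 2 made 66.9 RPKM (61.0 to 73.4). The fold of DUOXA2 over the parent was 24.8 in subclone 1 (12.8 to 54.9) and 48.4 in subclone 2 (25.3 to 107). The lower bounds are close to the folds of DUOX2, and the width comes from the 9 reads of the parent. The log2 ratios of DUOXA2 were 4.53 and 5.50, at rank 10 and rank 6 from the top. Its ratio of subclone 2 over subclone 1 was 1.95 (1.67 to 2.30), beside the 1.93 of DUOX2, and this interval contains the ratio of DUOX2.

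The balance between enzyme and maturation factor was read as the ratio of the RPKM of DUOX2 to that of DUOXA2. The parent had a ratio of 1.45 (0.716 to 3.34), subclone 1 one of 0.825 (0.712 to 0.959) and subclone 2 one of 0.813 (0.733 to 0.904). The interval of the parent contains the ratios of both subclones, so no change of balance was detectable at this depth. The ratios of the subclones lie below 1 with the lengths of 1451 bases for DUOXA2 and 6428 bases for DUOX2 that the deposited values imply. With the principal GENCODE lengths of 1760 and 6345 bases, an alternative chosen after the data were seen, they became 1.01 (0.875 to 1.18) and 1.00 (0.901 to 1.11), so that neither mRNA can be called the more abundant.

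DUOX1 and DUOXA1, the other pair of the cluster, stayed near the limit of detection. DUOX1 had 3, 4 and 8 reads in parent, subclone 1 and subclone 2, which are 0.117 RPKM (0.024 to 0.343), 0.152 RPKM (0.042 to 0.390) and 0.297 RPKM (0.128 to 0.586). The fold of DUOX1 over the parent was 1.30 in subclone 1 (0.22 to 8.86) and 2.53 in subclone 2 (0.608 to 14.8), and both intervals contain 1. DUOXA1 had 0 reads in the parent, which allows a level of up to 0.348 RPKM (3 reads). It had 0.113 RPKM from 1 read in subclone 1 and 0.440 RPKM from 4 reads in subclone 2 (0.120 to 1.13). The value in subclone 2 is 1.27-fold the limit of 3 reads in the parent, but with the error of both libraries the interval of the fold starts at 0.627. DUOXA1 and DUOXA2 share 706 exonic bases on opposite strands, which are 19.0% of the exonic bases of DUOXA1. The library kit does not mark strand, so the reads of DUOXA1 cannot be told apart from those of its abundant neighbour there. Of the summed RPKM of both DUOX enzymes, DUOX1 made up 5.52% (parent), 0.537% (subclone 1) and 0.543% (subclone 2).

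**Figure D1:**
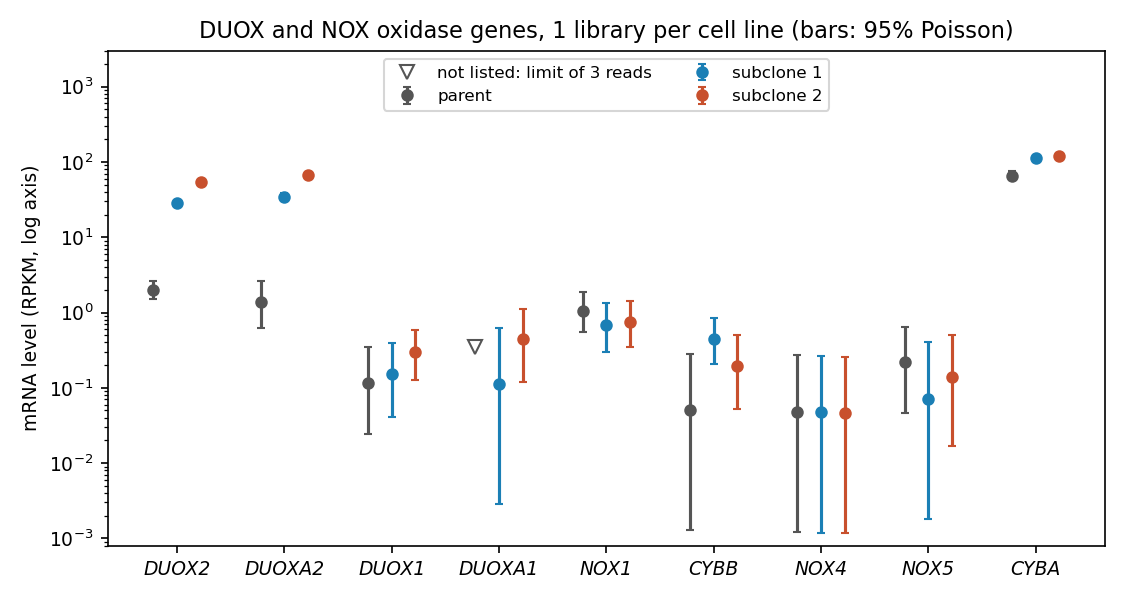
mRNA level of the 9 oxidase genes in the 3 libraries, in RPKM on a log axis, with 1 point per library and bars for the 95% Poisson interval. The open triangle is the limit of 3 reads for DUOXA1 in the parent. DUOX2 and DUOXA2 stand at 2.01 and 1.38 RPKM in the parent and above 25 RPKM in both subclones, CYBA is above 60 RPKM throughout, and the other genes lie near or under 1 RPKM.

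The catalytic NOX genes were at or under about 1 RPKM in all 3 libraries. NOX1, an enzyme best known from colon epithelium (Entrez gene 27035, chromosome X, 100843324 to 100874345, minus strand, 13 exons), had 12, 8 and 9 reads in parent, subclone 1 and subclone 2. These are 1.06 RPKM (0.546 to 1.85), 0.686 RPKM (0.296 to 1.35) and 0.753 RPKM (0.344 to 1.43). Its folds over the parent of 0.649 (0.230 to 1.73) and 0.712 (0.265 to 1.84) were not distinguishable from 1 at this depth. NOX4, a constitutively active enzyme that makes hydrogen peroxide (50507, chromosome 11, 89324356 to 89498187, minus strand, 18 exons), had 1 read in each library, or 0.0483 RPKM in the parent, 0.0470 RPKM in subclone 1 and 0.0459 RPKM in subclone 2. NOX5, the enzyme switched on by calcium (79400, chromosome 15, 68930525 to 69062743, plus strand, 16 exons), had 0.222 RPKM from 3 reads in the parent, 0.0720 RPKM from 1 read in subclone 1 and 0.140 RPKM from 2 reads in subclone 2. The intervals of its folds, 0.006 to 4.04 and 0.053 to 5.53, leave every direction possible. NOX5 shares 193 exonic bases on the same strand with SPESP1, which had 17.4, 12.7 and 14.9 RPKM, so even these reads are uncertain.

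CYBB, the catalytic NOX2 of phagocytes (Entrez gene 1536, chromosome X, 37780011 to 37813461, plus strand, 13 exons), had 0.0512 RPKM from 1 read in the parent. Subclone 1 had 9 reads of it, or 0.449 RPKM (0.205 to 0.851), and subclone 2 had 4 reads, or 0.194 RPKM (0.053 to 0.498). The fold of 8.76 in subclone 1 had an interval from 1.21 to 384, and that of 3.80 in subclone 2 had an interval from 0.376 to 187. The level of CYBB thus stayed under 1 RPKM in every line, and its difference rests on a single read in the parent.

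CYBA, the membrane partner of NOX1, NOX4 and CYBB, was the most abundant of the 9 mRNAs in all 3 libraries. Its gene (Entrez gene 1535, chromosome 16, 88643283 to 88651152, minus strand) has 6 exons. CYBA had 219, 383 and 420 reads in parent, subclone 1 and subclone 2, or 65.7 RPKM (57.3 to 75.0), 112 RPKM (101 to 124) and 120 RPKM (108 to 132). The parent was below both subclones, and the intervals of the subclones overlapped. The fold of CYBA over the parent was 1.70 in subclone 1 (1.44 to 2.02) and 1.82 in subclone 2 (1.54 to 2.16), with log2 ratios of 0.77 and 0.86. Between the subclones it was 1.07 (0.929 to 1.23), which does not exclude equal levels. The catalytic genes that bind CYBA summed to 1.16 RPKM in the parent, 1.18 RPKM in subclone 1 and 0.993 RPKM in subclone 2, from 14, 18 and 14 reads in all. DUOX2 alone made up 57.3% of the RPKM of the 6 catalytic genes (DUOX1, DUOX2, NOX1, NOX4, NOX5 and CYBB) in the parent, against 95.3% and 97.4% in the subclones.

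In the order of levels per length, CYBA came first in every library. In the parent DUOX2, DUOXA2 and NOX1 followed. Their separate intervals overlapped, which by itself does not decide their order. The interval of the ratio of DUOX2 to DUOXA2 (0.716 to 3.34) contains 1, and no interval was computed for ratios to NOX1. In both subclones DUOXA2 and DUOX2 came next, in an order that depends on their lengths, far above NOX1, whose upper bounds were 1.35 and 1.43 RPKM. All members below NOX1 rested on 9 reads or fewer in any library and could not be ordered.

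**Figure D2:**
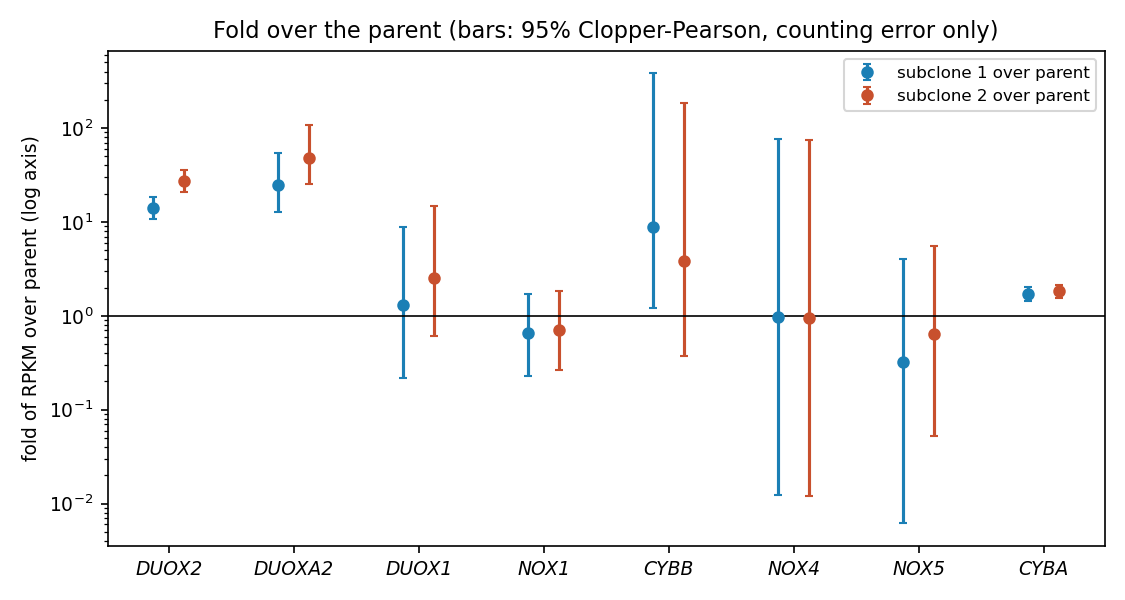
Fold of RPKM over the parent for 8 oxidase genes on a log axis, with bars for the 95% Clopper-Pearson interval. DUOXA1 is left out because it had 0 reads in the parent. In both subclones DUOX2, DUOXA2 and CYBA lie above 1 with their whole interval, and CYBB does so in subclone 1, while the intervals of DUOX1, NOX1, NOX4 and NOX5 contain 1.

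Of the 9 members, 3 (DUOX2, DUOXA2 and CYBA) reached a mean of 1 RPKM. DUOX2 and DUOXA2 were at least 2-fold higher in both subclones than in the parent on the log2 (RPKM + 0.1) scale, which understates folds of low genes, and no member that reached the mean was at least 2-fold lower. The share of all 11370 genes past 2-fold over the parent was 4.9% upward and 1.82% downward in subclone 1, and 5.33% upward and 2.16% downward in subclone 2. Between the subclones no member was at least 2-fold higher or lower, beside 1.42% and 1.39% of all genes. When each library was divided by its ACTB or its GAPDH, 2 members passed 2-fold in subclone 2 over subclone 1. By the counting interval, without a filter on level, the fold was wholly above 1 for 4 of the 9 members in subclone 1 over the parent, where it was for 16.4% of all genes with recovered reads. It was wholly above 1 for 3 members in subclone 2 over the parent (18.5% of genes), and for DUOX2 and DUOXA2 in subclone 2 over subclone 1 (9.57%). No member had an interval wholly below 1 in these comparisons, beside 15.1%, 14.3% and 7.17% of genes. The median log2 ratio of the 9 members was 0.77 in subclone 1 and 0.87 in subclone 2 over the parent, beside medians of 0.00 and 0.04 for all genes. Without DUOXA1, which was at 0 in the parent, the medians of the 8 others were 0.49 and 0.87. Both comparisons share the 1 parent library, and the choice of members used them.

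**Figure D3:**
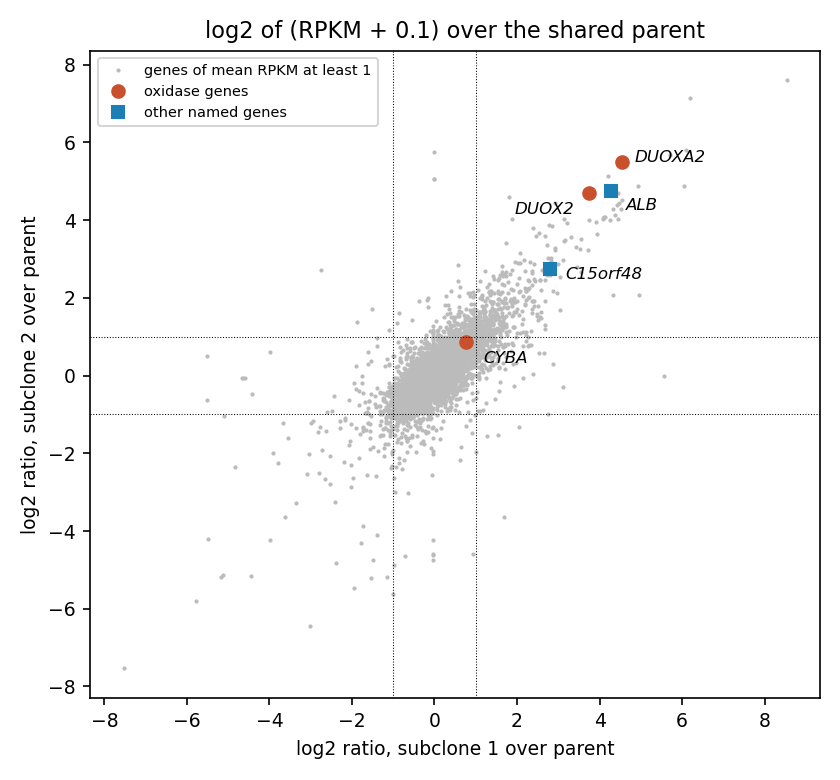
log2 ratio of (RPKM + 0.1) over the shared parent in subclone 1 (horizontal) and subclone 2 (vertical), with 1 point for each of the 11370 genes of mean RPKM at least 1 and dotted lines at 2-fold. DUOX2 (3.75 and 4.69) and DUOXA2 (4.53 and 5.50) lie at the upper right near ALB, CYBA lies just inside the 2-fold lines, and C15orf48 is the older symbol of COXFA4L3.

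The 5 genes whose pair of ratios over the parent lay nearest to that of DUOXA2 were RNU6ATAC, SNORD10, ALB, SMEK3P and SNORD88B, at Euclidean distances of 0.50, 0.72, 0.79, 0.80 and 0.99 on the log2 scale over 3 libraries. Only ALB among them had reads in the parent. RNU6ATAC had at most 2 reads in a library and SNORD10 likewise, SMEK3P went from 0 reads to 30 and 37, and no reads could be recovered for SNORD88B. ALB, which encodes serum albumin, had 2.46 RPKM in the parent (25 reads), 49.5 RPKM in subclone 1 (517 reads) and 68.8 RPKM in subclone 2 (736 reads). Its folds over the parent were 20.1 (13.5 to 31.4) and 28.0 (18.8 to 43.5). DUOX2 was the 8th nearest of 11369 genes, at a distance of 1.13.

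The cluster was next set among its neighbours, the 6 nearest protein-coding genes on each side in the RefSeq order. Of these 12 genes, 10 were listed and 8 reached a mean of 1 RPKM. On the scale with the pseudocount, 1 of the 8 was at least 2-fold higher in subclone 1 and 4 were in subclone 2, beside 4.9% and 5.33% of all genes, and none was lower, beside 1.82% and 2.16%. COXFA4L3, the farthest of them on the DUOX1 side and listed as C15orf48, had 2.88 RPKM in the parent (12 reads), 20.8 RPKM in subclone 1 (89 reads) and 19.8 RPKM in subclone 2 (87 reads). Its folds over the parent were 7.22 (3.94 to 14.5) and 6.89 (3.75 to 13.8). GATM, an enzyme of creatine synthesis, had 3.17, 4.84 and 13.3 RPKM in parent, subclone 1 and subclone 2, with a fold of 4.21 in subclone 2 (2.93 to 6.19).

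SLC28A2, a nucleoside transporter, had 3.44, 3.61 and 7.73 RPKM, with a fold of 2.25 in subclone 2 (1.52 to 3.38). TERB2, listed as C15orf43, had 8.0, 15.6 and 19.3 RPKM, with folds of 1.95 (1.36 to 2.81) and 2.41 (1.72 to 3.45). B2M, the light chain of MHC class I, had 479, 759 and 856 RPKM. SORD, the neighbour next to DUOX2, had 25.8, 25.2 and 36.0 RPKM, so its folds of 0.980 and 1.40 were far below those of DUOX2. SPG11 and AFG2B were under 2-fold, PATL2 and SHF had at most 2 reads in a library, and TRIM69 and LOC107984732 had no row. Over the 8 genes the log2 ratio spanned -0.03 to 2.81 (subclone 1) and 0.36 to 2.74 (subclone 2), below the ratios of DUOX2 and DUOXA2 in each.

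**Figure D4:**
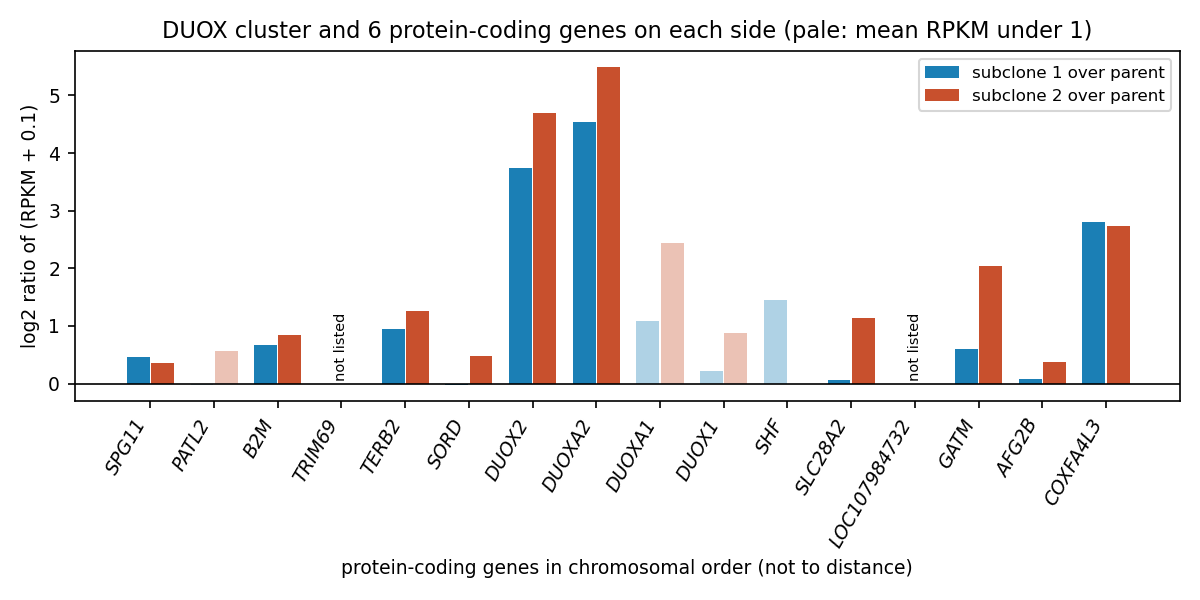
log2 ratio of (RPKM + 0.1) over the parent for the DUOX genes and the 6 protein-coding genes on each side, in chromosomal order and not to distance. Pale bars mark genes of mean RPKM under 1. DUOX2 and DUOXA2 have the tallest bars, COXFA4L3 at the right edge follows with 2.81 and 2.74, and SORD beside DUOX2 is near 0 in subclone 1.

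Other subunits and regulators of the oxidases stayed under 2-fold. Of 13 genes in this list, 10 were listed and 7 reached a mean of 1 RPKM. None of the 7 was at least 2-fold higher or lower in either subclone, and their median log2 ratios were 0.32 and 0.20. By the counting interval, 4 of the 7 were above and 1 below the parent in subclone 1. For all genes of that mean the shares were 20.6% and 19.7%. In subclone 2, 3 were above and 0 below, beside 23.5% and 18.6%. RAC1, a small GTPase needed by NOX1 and NOX2, had 302, 390 and 439 RPKM in parent, subclone 1 and subclone 2. RAC2, the form typical of blood cells, had 21.5, 36.9 and 39.4 RPKM, with folds of 1.72 (1.28 to 2.33) and 1.83 (1.37 to 2.47) that are close to those of CYBA. POLDIP2, a partner of NOX4 and CYBA, had 60.2, 58.2 and 58.1 RPKM. The organizer NOXO1 and the activator NOXA1 of NOX1 had at most 12 reads in a library. NOX3, NCF1 and NCF4 had no row.

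Of the 20 genes that remove superoxide and peroxide, all were listed and 19 reached a mean of 1 RPKM. In subclone 1, 2 of the 19 (SOD2 and SOD3) were at least 2-fold higher, in subclone 2 SOD2 alone was, none was lower, and the medians were -0.10 and -0.02. Among all genes, 4.9% were higher and 1.82% lower in subclone 1, and 5.33% and 2.16% in subclone 2. By the counting interval, 4 of the 19 were above the parent and 7 below it in subclone 1, beside 20.6% and 19.7% of all genes of that mean, and 4 above and 3 below in subclone 2, beside 23.5% and 18.6%. The 7 were TXN, TXNRD1, GPX2, PRDX1, PRDX3, PRDX4 and PRDX6, with folds of 0.783 to 0.920. SOD2, the superoxide dismutase of mitochondria, had 27.5, 55.3 and 61.5 RPKM, with folds of 2.01 (1.90 to 2.13) and 2.23 (2.11 to 2.36). The call of SOD2 in subclone 1 lies at the threshold, and rescaling the libraries to the same sum left 1 gene of the list called. SOD3, secreted outside the cell, had 4, 15 and 8 reads, and its fold in subclone 1 was 3.65 (1.16 to 15.1). TXN, thioredoxin, had the highest mean of the list with 2385, 1926 and 1978 RPKM, followed by its reductase TXNRD1 with 1023, 866 and 1041 RPKM. CAT, which breaks down hydrogen peroxide, had 35.4, 45.7 and 51.4 RPKM.

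Of 9 peroxidases and peroxide channels, AQP3 alone had a row, with 1.46, 0.828 and 1.27 RPKM in parent, subclone 1 and subclone 2 and folds whose intervals contain 1. The airway peroxidase LPO had no row. Among 13 other enzymes that make superoxide or peroxide, 8 reached a mean of 1 RPKM, with medians of 0.59 and 0.40. In subclone 1, 2 were at least 2-fold higher and 1 lower, beside 4.9% and 1.82% of all genes. In subclone 2, 1 was higher and 1 lower, beside 5.33% and 2.16%. By the counting interval, 6 of the 8 were above the parent and 2 below it in subclone 1. For all genes of that mean the shares were 20.6% and 19.7%. In subclone 2, 5 were above and 1 below, beside 23.5% and 18.6%. LOX, which cross-links collagen, had 3.74, 17 and 6.42 RPKM, with folds of 4.54 (3.60 to 5.80) and 1.71 (1.31 to 2.25). ERO1B, an oxidase of protein folding listed as ERO1LB, had 10, 42 and 37 reads, with folds of 4.09 (2.02 to 9.14) and 3.51 (1.71 to 7.93). MAOB, a monoamine oxidase, had 28.1, 3.90 and 10.1 RPKM, with folds of 0.139 (0.10 to 0.189) and 0.361 (0.291 to 0.445). ERO1A, listed as ERO1L, and LOXL2 had the highest means, with 38.4, 54.9 and 59.2 RPKM and with 21.2, 33.6 and 26.1 RPKM.

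Interleukins of type 2 immunity and interferons are known to raise DUOX expression in epithelia, and TGF-beta is known to raise NOX4. Of 13 receptors and factors of the cytokine input, 9 reached a mean of 1 RPKM. None was at least 2-fold higher over the parent, 1 was lower in each subclone, and the medians were 0.28 and 0.38. Counting intervals put 5 of the 9 above the parent and 1 below it in subclone 1. For all genes of that mean the shares were 20.6% and 19.7%. In subclone 2, 6 were above and 1 below, beside 23.5% and 18.6%. The lower gene was IL13RA2, the decoy receptor of interleukin-13, with 103, 47.1 and 39.1 RPKM and folds of 0.459 (0.398 to 0.527) and 0.38 (0.327 to 0.440). IFNGR1, a receptor chain for interferon-gamma, had 90.2, 147 and 147 RPKM, with a fold of 1.63 (1.5 to 1.78) in each subclone. IL13RA1, a receptor chain for interleukin-13, had 69.8, 87.7 and 88.2 RPKM, with folds of 1.26 (1.17 to 1.35) and 1.26 (1.17 to 1.36). IRF1 had 5.93, 9.12 and 11.7 RPKM, with folds of 1.54 (1.18 to 2.01) and 1.97 (1.53 to 2.54). Under that mean, TLR3 had 1, 12 and 11 reads and is described below. The part of the cytokine input in the difference of DUOX2 and DUOXA2 was not tested. Of 10 genes of the TGF-beta input, 9 reached a mean of 1 RPKM, none was at least 2-fold higher or lower, and the medians were -0.03 and 0.15. Counting intervals put 4 of these 9 above the parent and 1 below it in subclone 1, and 3 above and 1 below in subclone 2. The ligand gene TGFB1 had 64.4, 89.7 and 78.4 RPKM.

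**Figure D5:**
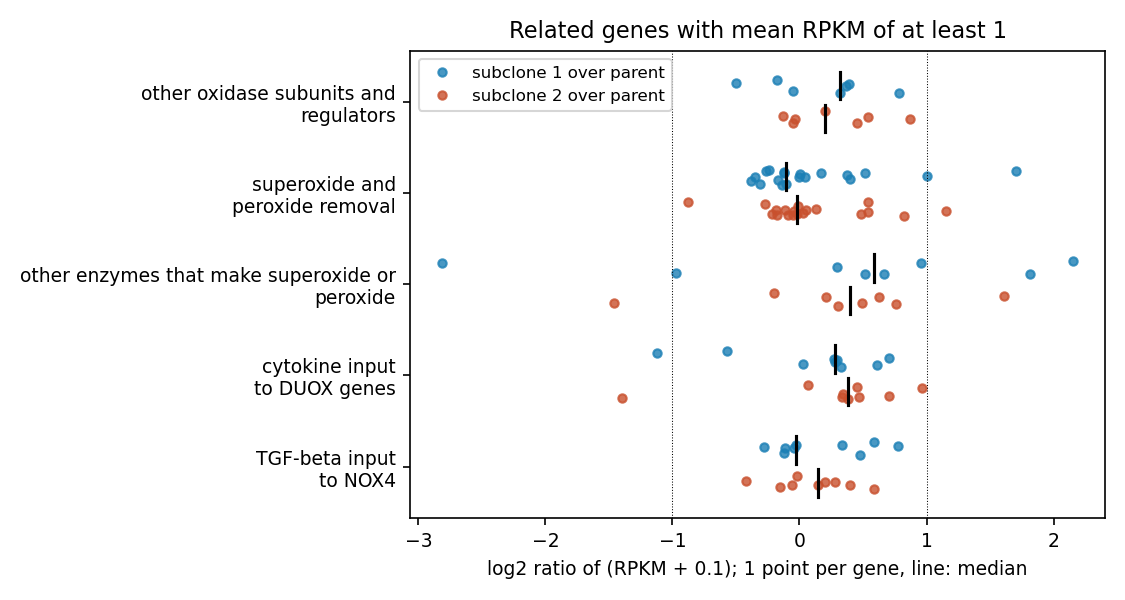
log2 ratio of (RPKM + 0.1) over the parent for the related genes of mean RPKM at least 1 in 5 lists, with 1 point per gene, a black line at each median and dotted lines at 2-fold. Most points lie between the dotted lines, and the medians run from -0.10 to 0.59.

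The labelled cell type and other cell types were checked by markers. Hepatocyte lineage markers included KRT8 (1614, 1641 and 1742 RPKM in parent, subclone 1 and subclone 2), KRT18 (953, 1075 and 1048 RPKM) and the transcription factor HNF4A (11.7, 11.9 and 16.0 RPKM). The summed RPKM of the 14 genes was 2624, 2863 and 2934, mostly from KRT8 and KRT18, and 10 reached a mean of 1 RPKM. AFP was low, with 2.41, 4.16 and 4.27 RPKM. Under that mean, APOA1 had 1, 3 and 2 reads, SERPINA1 1, 4 and 1, and TTR 0, 0 and 2. APOA2 had no row. In subclone 1, 4 of the 10 were at least 2-fold higher (ALB, APOB, TF and FGB), in subclone 2, 3 were (ALB, APOB and FGB), none was lower, and the medians were 0.47 and 0.42. Among all genes, 4.9% and 5.33% were higher in subclone 1 and subclone 2, and 1.82% and 2.16% lower. Counting intervals put 4 above the parent in subclone 1 and 7 in subclone 2, beside 20.6% and 23.5% of genes of that mean. They put 0 below it, beside 19.7% and 18.6%. FGB, without recovered reads, has no interval. APOB, of lipoproteins, had 0.300, 1.23 and 4.17 RPKM. TF, transferrin, had 5.71, 30.3 and 5.88 RPKM, and FGB, a fibrinogen chain, had 1.66, 14.5 and 5.6 RPKM. ALB and APOB had the same order of libraries as DUOX2 and DUOXA2. TF was at the level of the parent in subclone 2 (fold 1.03, 0.785 to 1.35), and FGB was lower there than in subclone 1. The part of these genes in the difference of DUOX2 and DUOXA2 was not tested.

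Thyroid and airway markers, the tissues best known for DUOX, summed to 2.43, 2.69 and 3.72 RPKM over 13 genes, of which 7 were listed and PAX8 alone reached a mean of 1 RPKM (1.97, 1.55 and 1.61 RPKM). TSHR, NKX2-1, FOXE1, SFTPC, FOXJ1 and MUC5AC had no row. PAX8 was not 2-fold changed. Under that mean, the iodide symporter gene SLC5A5 had 3, 7 and 24 reads, with a fold of 7.60 in subclone 2 (2.31 to 39.4). This is the order of libraries of DUOX2 and DUOXA2, and its part in their difference was not tested. MUC5B had 6, 16 and 6 reads, and TG, SLC26A4, SFTPB and SCGB1A1 had at most 7 in a library. Of 15 leukocyte markers, the cells best known for CYBB, 9 were listed. Their sum of 77.5, 118 and 103 RPKM was mostly CD68, a lysosomal protein (75.3, 112 and 99.6 RPKM), LYZ had 1.03, 1.00 and 1.40 RPKM, and neither was 2-fold changed. Under a mean of 1 RPKM, the integrin gene ITGAM had 11, 24 and 27 reads, with folds of 2.12 (1.00 to 4.80) and 2.33 (1.12 to 5.21). CD14 had 1, 8 and 0 reads, with a fold of 7.79 in subclone 1 (1.04 to 346), and TYROBP had 0, 5 and 1 reads, so that both were highest in subclone 1, as was CYBB with 1, 9 and 4 reads. The part of these markers in the values of CYBB was not tested. The pan-leukocyte gene PTPRC had 2, 0 and 0 reads, and SPI1, CSF1R, FCER1G, AIF1, CD3D and MS4A1 had no row.

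Endothelial and fibroblast markers summed to 20.4, 42.9 and 31.8 RPKM, with 9 of 13 listed and 5 at a mean of 1 RPKM. In subclone 1, 3 of the 5 were at least 2-fold higher (PECAM1, DCN and LUM), and in subclone 2, 3 were higher (KDR, DCN and LUM) and COL3A1 was lower, with medians of 1.24 and 1.05. Among all genes, 4.9% were higher and 1.82% lower in subclone 1, and 5.33% and 2.16% in subclone 2. PECAM1 had 3.33, 9.81 and 4.46 RPKM, KDR 1.36, 1.93 and 3.08 RPKM, DCN 0.773, 4.42 and 2.75 RPKM, LUM 10.1, 24.0 and 21.0 RPKM, and COL3A1 4.42, 2.21 and 0.463 RPKM. Under that mean, CDH5 had 0, 1 and 0 reads, VWF 2, 1 and 1, COL1A2 1, 1 and 0, and COL1A1 9, 11 and 1. TIE1, PDGFRA, PDGFRB and ACTA2 had no row. LUM was the largest part of the sum in each library, so the sum does not stand for the list as a whole. The sum was higher in both subclones, as were DUOX2 and DUOXA2, and its part in their difference was not tested.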

How the data were processed

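The authors deposited RPKM values for genes by Entrez number and symbol, 1 file for each library, listing values above 0. The submitters' processing notes name the build hg19. The aligner, counting tool and annotation are not given in the sources used here. The deposited RPKM were used as they stand. The members and lists were chosen with earlier results of these data known.

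Library totals were the values at which genes under 1 RPKM gave whole reads (within 1e-05 reads) with a GENCODE 29 transcript length, met by 142, 129 and 135 of 3424, 3351 and 3386 such genes, against 4, 0 and 5 at doubled totals. A gene took the smallest length that gave whole reads and lay within 10% of a transcript length or within the range of its transcripts. This resolved 97.9% of genes with mean RPKM of at least 1. The rule on lengths was revised after values were seen, and reads sharing a divisor may be understated.

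Ratios were log2 of (RPKM + 0.1). Genes were named by rule: all members, list genes at least 2-fold changed over the parent or among the 2 highest by mean, the 6 nearest genes on each side of the cluster and 3 beside NOX1 and CYBA (protein-coding genes only, a limit added later), and the 5 nearest patterns. Other genes named (among them PTPRC, HNF4A, CAT, ITGAM and those without a row) were chosen after their values were seen. Some genes of the lists are not reported here. Promoter sequences came from RefSeq (GRCh38.p14), where 9 of 9 members matched. Alternatives were pseudocounts of 0.01 and 1, 5 scalings, other filters and 1.5-fold. Python 3.11.15, numpy 2.4.6, pandas 2.3.3, scipy 1.17.1 and matplotlib 3.10.9 were used.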

Additional observations from a re-analysis of the deposited data

Results flagged for a closer look

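GPX2, a glutathione peroxidase of epithelia and 1 of the peroxide-removing genes of the related lists, was lower than the parent in subclone 1 and higher in subclone 2. It had 704 RPKM in the parent, 648 RPKM in subclone 1 and 771 RPKM in subclone 2. Against the parent, subclone 1 had a log2 ratio of -0.12 and a fold of 0.920 (95% counting interval 0.875 to 0.967), while subclone 2 had a log2 ratio of 0.13 and a fold of 1.09 (1.04 to 1.15). The fold of subclone 2 over subclone 1 was 1.19 (1.13 to 1.25), which covers counting error only. The difference between the subclones was not tested, since each line has 1 library. Both ratios over the parent share its library.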

How the results depend on the processing

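Of 189 log2 ratios of the 9 members under 7 alternatives of pseudocount and scaling, 186 remained inside the counting interval of the main ratio. This says little of members with few reads, whose intervals are wide: the ratio of DUOXA1 in subclone 2 over the parent ran from 0.53 to 5.49 and that of CYBB in subclone 1 from 0.46 to 2.91. No ratio of DUOX2, DUOXA2 or CYBA over the parent turned its sign. The ratios of DUOX2 over the parent became 3.28 in subclone 1 and 4.20 in subclone 2 with a pseudocount of 1, and its ratio of subclone 2 over subclone 1 became 1.07 with division by ACTB. Over all alternatives the ratios of DUOXA2 ran from 3.89 to 4.62 and from 4.83 to 5.59 over the parent, and those of CYBA from 0.63 to 0.78 and from 0.83 to 0.93. Division by ACTB moved the median of all genes by -0.13 in subclone 1 over the parent and by 0.12 in subclone 2 over subclone 1, and GAPDH moved the latter by 0.12.

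The number of members past 2-fold upward between the subclones went from 0 to 2 with ACTB, 2 with GAPDH, 1 with no filter and 2 at 1.5-fold, beside 1.93%, 1.86%, 5.21% and 4.75% of all genes, and for subclone 1 over the parent it went from 2 to 4 with no filter, beside 9.43% of all genes. In the order described above, the related lists held 7, 19, 1, 8, 9, 9, 10, 1, 2 and 5 genes of mean RPKM at least 1. The counts below are of these genes together, while the shares are percentages. Counts with no filter or with a mean of 5 RPKM come from other numbers of list genes, which are not given here. Over all related lists, subclone 1 had 11 genes past 2-fold upward and 2 downward against the parent, beside 4.9% and 1.82% of all genes. Subclone 2 had 8 and 3 against the parent, beside 5.33% and 2.16%. Against subclone 1 it had 3 and 5, beside 1.42% and 1.39%. With a pseudocount of 1 the higher genes were 7 and 5 over the parent, beside 3.05% and 3.34% of all genes. With ACTB the lower genes in subclone 1 were 4, and with GAPDH 4, beside 2.88% and 2.19% of all genes. Without a filter the higher and lower genes numbered 20 and 6, 18 and 8, and 8 and 11. The shares of all genes were then 9.43% and 5.47%, 9.62% and 5.83%, and 5.21% and 5.59%. With a mean of at least 5 RPKM the higher genes were 7, 4 and 1, beside 2.84%, 3.08% and 0.524% of all genes. At 1.5-fold there were 19 higher and 5 lower in subclone 1, 15 higher in subclone 2, and 5 higher and 9 lower between the subclones. The shares of all genes for these counts, in the same order, were 11.6%, 7.46%, 12.7%, 4.75% and 4.11%. The cause of the changes with ACTB and GAPDH was not tested beyond the shift of the median. The others follow from the setting itself.

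No paired analysis was possible because there was 1 library for every line, and leaving out a library was not run for the same reason. Depth limits DUOX1, DUOXA1, NOX4, NOX5 and CYBB, whose folds over the parent rest on 3 reads or fewer in the parent.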

Other observations

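The protein-coding neighbours of the other members that reached 1 RPKM in any library, NOX1 and CYBA, were lower or level in the subclones. Of 6 genes beside NOX1, 4 reached a mean of 1 RPKM, and their log2 ratios over the parent spanned -0.87 to -0.26 (subclone 1) and -1.11 to -0.02 (subclone 2). SRPX2 had 7.78, 4.43 and 3.55 RPKM in parent, subclone 1 and subclone 2, and its fold of 0.456 in subclone 2 (95% counting interval 0.361 to 0.575) was past 2-fold. CSTF2, a factor of mRNA 3′ end processing, had 34.2, 18.7 and 20.2 RPKM. Of 6 genes beside CYBA, 5 were listed and 4 reached a mean of 1 RPKM, with log2 ratios of -0.24 to 0.04 (subclone 1) and -0.29 to -0.07 (subclone 2), beside 0.77 and 0.86 for CYBA itself.

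Among genes of the related lists under a mean of 1 RPKM, 7 differed from the parent beyond counting error in at least 1 subclone, and they were picked out after their values were seen. The share of all genes at this level that did so was not computed, so the number is a description only. They include the leukocyte markers ITGAM and CD14, described above. COL1A1, a collagen of fibroblasts, had 9, 11 and 1 reads, with a fold of 0.106 in subclone 2 (0.002 to 0.762). SLC5A5, the sodium iodide symporter that supplies the thyroid with iodide, had 3, 7 and 24 reads in parent, subclone 1 and subclone 2, with a fold of 7.60 in subclone 2 (2.31 to 39.4). XDH, xanthine dehydrogenase, had 0, 12 and 7 reads, and HAO1, a peroxide-making oxidase of liver peroxisomes, had 0, 14 and 10 reads. Relative to the limit of 3 reads in the parent, the value of HAO1 was 4.54-fold as high in subclone 1 and 3.17-fold in subclone 2. Those of XDH were 3.90-fold and 2.22-fold. With the error of both libraries, the intervals of the folds start lower, at 3.23 and 2.13 for HAO1 and at 2.71 and 1.37 for XDH. TLR3, a receptor for double-stranded RNA, had 1, 12 and 11 reads, with folds of 11.7 (1.73 to 500) and 10.4 (1.52 to 450).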
